A study of Rattus norvegicus with 6 samples.

Results

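Complement is a set of plasma proteins that mark microbes and damaged cells for removal and can pierce their membranes. The genes described here are C1s, C1r, C2, C3, C4a, C9, Cfb, Cfi and Masp1. They were measured as the array probe sets whose single annotated gene symbol is one of these 9 names, whatever their brightness. Of the 9 genes, 6 had such a probe set, among 10411 gene symbols with a probe set of their own. C1r, C1s, C3, Cfi and C9 had 1 probe set each and Masp1 had 3, giving 8 of the 15866 probe sets. C2 and Cfb were annotated together on 1 probe set, and C4a together with C4b on another, so none of these genes was analysed here.

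Liver endothelial cells from cirrhotic Wistar rats, described as adult males, were compared with liver endothelial cells from control Wistar rats. Each group had 3 Affymetrix rat 230A arrays, and per the labels' protocols the cells were freed with collagenase, separated by density and captured on antibody-coated magnetic beads. How the livers were made cirrhotic, what the antibody bound, whether control rats were male and how many rats an array stands for is not stated in the labels. The p-values therefore measure the spread between these arrays, which may be technical, and the number of arrays limits the precision.

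The cascade starts in 3 ways. In the classical pathway C1q, bound to antibody or dead cells, activates the proteases C1r and then C1s, and C1s cleaves C4 and C2. In the lectin pathway mannose-binding lectins and ficolins carry the related proteases encoded by Masp1 and Masp2, and the alternative pathway runs on C3 and factor B. All routes cleave C3, whose fragment coats surfaces. Factor I, encoded by Cfi, inactivates that fragment, and C9 forms the wall of the terminal membrane pore. Hepatocytes are the main source of plasma complement, while C1q comes mostly from macrophages, and fibroblasts can secrete C1r, C1s and C3.

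C1r, C1s and C3 had higher signals in cells from cirrhotic livers, by 2.32, 3.38 and 3.70 times on the means of 3 arrays per group. All 3 passed limma's moderated test, and every cirrhotic array lay above every control array. Cfi and C9 had mean signals 2.82 and 2.61 times those of control, but their arrays scattered widely and neither passed. The brightest Masp1 probe set was 1.46 times its control mean and did not pass. Of the 7 complement probe sets bright enough to be tested, 3 were called higher and 0 lower at an adjusted p under 0.05, where 12.3% of all 9519 tested probe sets were called higher and 13.2% lower. All cirrhotic arrays lay above all control arrays in the same 3 probe sets, and in 20.8% of all tested probe sets. Over the 6 genes, taking each gene's brightest probe set, the median difference was 1.31 on the log2(signal + 16) scale, against a median of -0.02 over all tested probe sets. These 6 probe sets were above the filter on low values, and in each of them every array of both groups read above the bacterial control probe sets, which mark background.

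**Figure D1:**
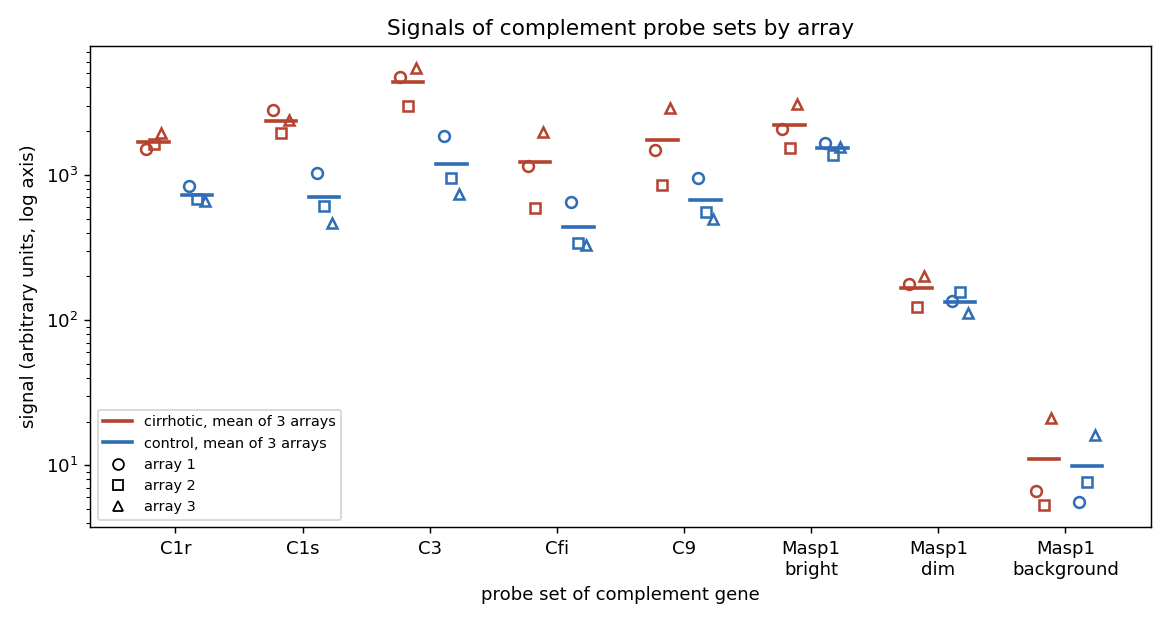
Signal of each complement probe set on a log axis, with 1 point per array (circle, square and triangle for arrays 1, 2 and 3), cirrhotic arrays left of control arrays, and a bar at the mean of each 3. For C1r, C1s and C3 the cirrhotic and control points do not overlap, for Cfi, C9 and Masp1 they do, and the Masp1 probe set on the right reads 21.0 or less on every array.

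Before these genes are described one by one, the arrays and the cells on them need a few values. The mean signal without the lowest and highest 2% of values lay between 399.3 and 399.7 on all 6 arrays, and Pearson's correlation across tested probe sets lay between 0.912 and 0.967 within groups and between 0.821 and 0.874 across groups. Endothelial markers were bright in both groups, but 14 of 15 tested were lower in cirrhotic, and their summed signal was 30435 to 32535 on cirrhotic and 59268 to 63090 on control arrays. The remaining marker, Vwf, went the other way without a call, at 1405.8 to 2163.4 on cirrhotic and 712.4 to 1398.8 on control arrays. The hepatocyte marker Alb read 11422 to 13925 on cirrhotic and 10636 to 11729 on control arrays, so hepatocyte transcripts were present in both groups. Of 23 hepatocyte markers 4 were higher and 1 lower (median difference 0.26), with summed signals of 53031 to 108173 on cirrhotic and 51193 to 70240 on control arrays. The highest cirrhotic signal of all 23 lay on cirrhotic array 3, which stood apart in this way. Of 11 tested stellate cell and fibroblast markers 10 were higher (median 2.87), with summed signals over all 14 of 17792 to 31279 on cirrhotic and 2287 to 4238 on control arrays, and Acta2, Des and Thy1 were too dim to be tested. Of 10 macrophage and Kupffer cell markers 2 were higher and 1 lower (median 0.29), with summed signals of 7670 to 16146 on cirrhotic and 6532 to 10781 on control arrays. Of 9 tested cholangiocyte markers 8 were higher (median 3.10), with 6368 to 14970 on cirrhotic and 1328 to 2275 on control arrays. Leukocyte markers were higher in 5 of 9 tested for T and NK cells and in 2 of 2 for B and plasma cells, and the 4 neutrophil markers were too dim to be tested. No marker of these lists was at background on all 6 arrays. In such bulk samples fewer cells of a type and less RNA per cell cannot be told apart.

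C1r encodes the protease that activates itself within the C1 complex. Its signal was 1495.2, 1620.9 and 1934.2 on cirrhotic arrays 1 to 3, against 832.4, 683.1 and 658.2 on control arrays 1 to 3. The groups did not overlap, and the arrays within each group lay close together. C1r rose by 1.20 on the log2(signal + 16) scale (SE 0.15, 95% interval 0.84 to 1.55, n = 3 per group, adjusted p = 0.00172). It had the smallest standard error of the 6 genes, and its difference stayed between 1.09 and 1.30 with any 1 array left out.

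C1s encodes the substrate of C1r and cleaves C4 and C2. Its signal was 2781.1, 1948.0 and 2370.8 on the cirrhotic arrays, against 1022.2, 612.5 and 468.2 on the control arrays. The lowest cirrhotic signal was above the highest control signal, which was on control array 1. C1s rose by 1.79 (SE 0.28, 95% interval 1.16 to 2.43, adjusted p = 0.00352), between 1.55 and 2.10 with 1 array left out. In the GRCr8 gene table C1r and C1s are neighbours on chromosome 4, with no other protein-coding gene between them.

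C3 encodes the component on which all pathways meet. Its signal was 4696.0, 2959.3 and 5458.8 on the cirrhotic arrays, against 1859.1, 943.7 and 740.6 on the control arrays. The highest signal of either group belonged to cirrhotic array 3, and control array 1 stood above the other control arrays. C3 rose by 1.94 (SE 0.35, 95% interval 1.13 to 2.75, adjusted p = 0.00677). The difference lay between 1.66 and 2.32 with 1 array left out, and all 3 genes kept an adjusted p under 0.05 in each of these 6 fits.

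The start regions of C1r and C3 are shown because both genes rose and the RefSeq promoter table (build GRCr8) holds them. It also holds those of Cfi and Masp1. C1s and C9 had no entry. Each window runs from 250 bases before to 50 bases after the listed start of the gene, written 5′ to 3′ on the gene's own strand. Capitals mark the only match in that window to any of 4 short patterns searched on both strands, here the pattern TTGCNNAA of C/EBP factors, which are liver and acute phase transcription factors. The C1r window lies at chr4:159098763-159099062 on the plus strand and the C3 window at chr9:2201290-2201589 on the minus strand.
C1r: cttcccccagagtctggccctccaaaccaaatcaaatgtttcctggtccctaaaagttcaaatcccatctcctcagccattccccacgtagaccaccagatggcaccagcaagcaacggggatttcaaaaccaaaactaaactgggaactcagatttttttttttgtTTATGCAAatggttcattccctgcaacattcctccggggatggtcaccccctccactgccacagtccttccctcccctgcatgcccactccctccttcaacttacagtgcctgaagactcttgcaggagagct
C3: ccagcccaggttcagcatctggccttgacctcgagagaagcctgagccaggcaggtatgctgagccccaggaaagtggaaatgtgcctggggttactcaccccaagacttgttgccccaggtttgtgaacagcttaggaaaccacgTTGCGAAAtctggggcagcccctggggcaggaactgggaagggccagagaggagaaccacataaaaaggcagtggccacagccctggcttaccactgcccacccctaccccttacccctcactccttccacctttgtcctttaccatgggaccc

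In the C1r window the matched letters TTATGCAA, on the reverse strand, began 83 bases before the start, and in the C3 window TTGCGAAA began 104 bases before it. The C/EBP pattern was found in 10.6% of all 33469 promoter windows. The Cfi and Masp1 windows each held 1 match to the NF-kB pattern GGNNTTNCC, which 16% of all windows held, and none to the C/EBP pattern. None of the 4 windows held the IRF pattern GAAANNGAA (9.71% of all windows) or the STAT pattern TTCNNNGAA (8.87%), and no match overlapped another. A match describes letters in a window and does not show that a factor binds there.

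Cfi encodes the protease that cuts the C3 and C4 fragments on surfaces and so ends the cascade. Its signal was 1142.5, 595.6 and 1960.0 on the cirrhotic arrays, against 647.0, 338.6 and 327.7 on the control arrays. Cirrhotic array 2 read below control array 1, so the groups overlapped, and cirrhotic array 3 was far above the rest. The difference was 1.37 (SE 0.43, 95% interval 0.38 to 2.36, adjusted p = 0.05004), just above the threshold of 0.05. It passed in 8 of 17 alternative fits, among them quantile normalization (adjusted p = 0.04998), and over all 17 the adjusted p ran from 0.0107 to 0.377.

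C9 encodes the subunit that polymerises into the membrane attack pore. Its signal was 1489.3, 848.2 and 2905.3 on the cirrhotic arrays, against 954.7, 554.9 and 496.6 on the control arrays. As for Cfi, cirrhotic array 2 fell below control array 1 and cirrhotic array 3 was the highest. The difference was 1.25 (SE 0.43, 95% interval 0.25 to 2.24, adjusted p = 0.0678), and it was called in 3 of 17 alternative fits. Without cirrhotic array 3 the difference was 0.79 for C9 (adjusted p = 0.114) and 0.96 for Cfi (adjusted p = 0.0882), and without cirrhotic array 2 it was 1.67 (adjusted p = 0.0154) and 1.81 (adjusted p = 0.0107).

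Masp1 encodes a protease of the lectin pathway and, by alternative splicing, further proteins, and the annotation used here does not say which transcript each probe set reads. The brightest Masp1 probe set read 2058.6, 1534.3 and 3066.6 on the cirrhotic arrays, against 1650.2, 1367.7 and 1549.5 on the control arrays. Cirrhotic array 2 lay within the control signals. The difference was 0.49 (SE 0.24, 95% interval -0.06 to 1.03, adjusted p = 0.164), and it was 0.23 without cirrhotic array 3 and 0.72 without cirrhotic array 2, where it passed (adjusted p = 0.0336). Another Masp1 probe set was dimmer and read 177.1, 122.7 and 200.2 on the cirrhotic arrays, against 134.8, 155.1 and 111.6 on the control arrays. Its difference was 0.27 (SE 0.22, adjusted p = 0.39). The third read between 5.3 and 21.0 on cirrhotic and between 5.6 and 16.2 on control arrays, at or under the highest bacterial control probe set on all 6 arrays, and was not tested.

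**Figure D2:**
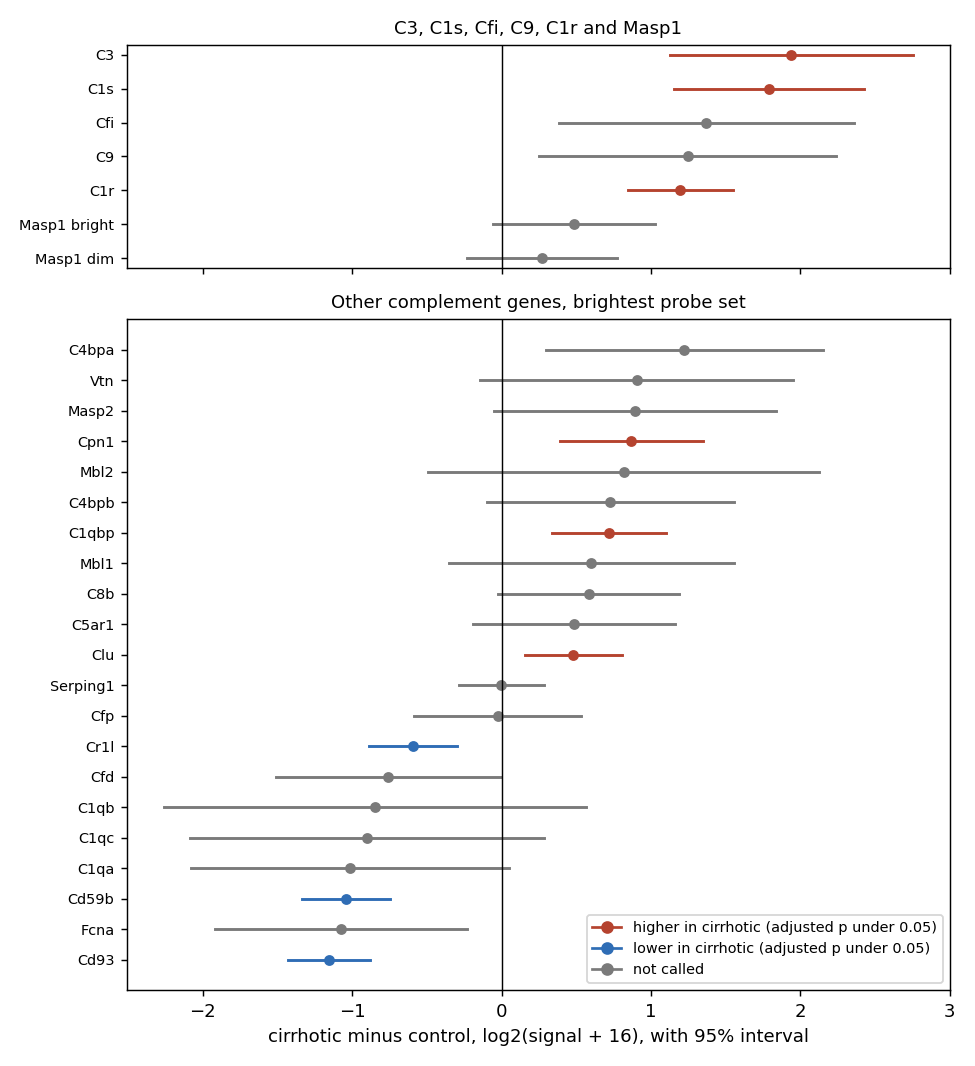
Cirrhotic minus control on the log2(signal + 16) scale (points) with 95% intervals from limma (lines), for the 7 tested probe sets of C3, C1s, Cfi, C9, C1r and Masp1 above and 21 further complement genes below. C3, C1s and C1r are called higher, and below them Cpn1, C1qbp and Clu are called higher and Cr1l, Cd59b and Cd93 lower.

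The differences of the 6 genes were also compared in pairs, of which none passed a test. On each array the log2 value of Masp1 was subtracted from that of C3, which compares changes and not levels. The result was 1.18, 0.94 and 0.83 on the cirrhotic arrays, against 0.17, -0.53 and -1.05 on the control arrays. The difference of C3 exceeded that of Masp1 by 1.45, that of C1s did so by 1.31 and that of C1r by 0.71, with no overlap between the groups for these 3 pairs of the 15 possible. By exact permutation of the arrays (two-sided), p was 0.1 for each of the 3, the smallest that 3 against 3 arrays allow, and 0.3 after adjustment over the 15 pairs. In the other 12 pairs the groups overlapped, and the pair with the closest differences was C1r and C9 (-0.05).

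The genes and the marker lists of other cells were set side by side array by array. Within the cirrhotic group, cirrhotic array 3 exceeded the mean of arrays 1 and 2 by 1.36 for C9, 1.23 for Cfi, 0.78 for the brightest Masp1 probe set and 0.55 for C3. It exceeded that mean by 0.31 for C1r and by 0.03 for C1s. The median of the same quantity was 1.06 over the 23 hepatocyte markers and -0.13 over the 14 stellate cell and fibroblast markers. In the control group array 1 was the highest for all 6 genes, for 19 of 23 hepatocyte markers and for 9 of 14 stellate cell and fibroblast markers. Lists other than the stellate cell and fibroblast list also had higher mean log2 values on every cirrhotic than on every control array. These values were 8.40 to 9.97 against 6.55 to 7.34 for the cholangiocyte list and 7.49 to 8.29 against 6.99 to 7.36 for the B and plasma cell list. For the acute phase and cytokine response list described below they were 10.35 to 10.85 against 9.42 to 9.95. What part cells of these types had in the differences was not tested.

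**Figure D3:**
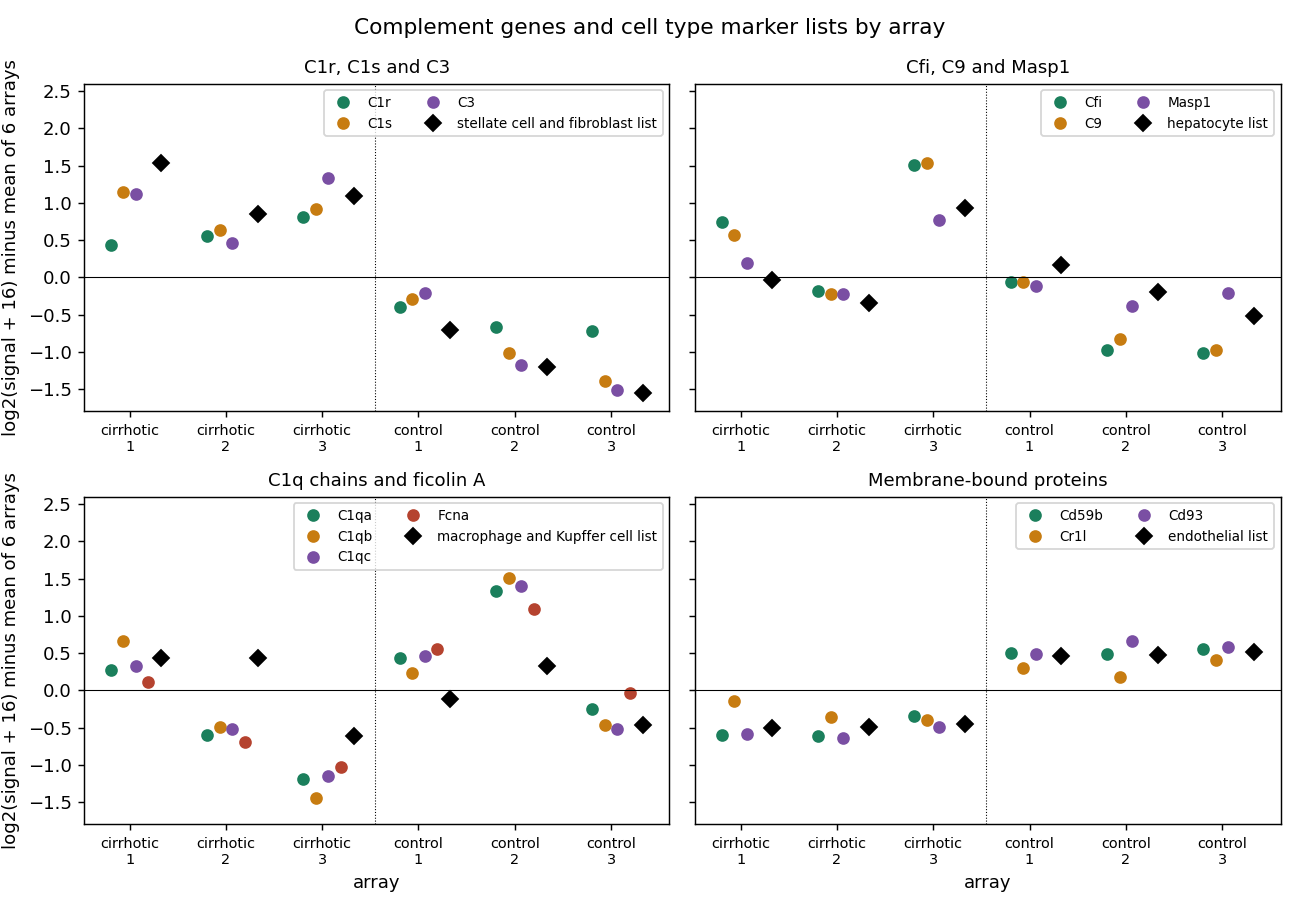
Log2(signal + 16) minus the mean of the 6 arrays, for complement genes (coloured points) and the mean of a cell type marker list (black diamonds), by array, with cirrhotic arrays left of control arrays. Lists not drawn, the cholangiocyte list among them, also lay higher on all cirrhotic than on all control arrays. C1r, C1s and C3 and the stellate cell list are above 0 on all cirrhotic and below 0 on all control arrays, C1r, C3, Cfi, C9, Masp1 and the hepatocyte list peak on cirrhotic array 3 while C1s and the stellate cell list peak on cirrhotic array 1, the C1q chains peak on control array 2, and Cd59b, Cr1l and Cd93 are below 0 on all cirrhotic arrays with the endothelial list.

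Each gene was also read against the hepatocyte markers of its own array, as its log2 value minus the mean log2 value of the 23 markers, a setting chosen after seeing the data. For C3 this was 1.48, 1.13 and 0.73 on the cirrhotic arrays, against -0.04, -0.66 and -0.67 on the control arrays. For C9 it was -0.17, -0.65 and -0.18 on the cirrhotic arrays, against -0.99, -1.40 and -1.23 on the control arrays. The groups did not overlap for C1r, C1s, C3, Cfi and C9, whose relative differences were 0.83, 1.42, 1.57, 1.00 and 0.88. By two-sided exact permutation each of these 5 had p = 0.1, the smallest possible, and 0.12 after adjustment over the 6 genes. Masp1 differed by 0.12 (exact permutation p = 0.7) and its groups overlapped. Over all tested probe sets the median difference was -0.39 on values centred this way, against -0.02 uncentred. The centring shifts the differences of all probe sets by the same amount. The share of all probe sets without overlap on centred values is not given here. In limma across all probe sets on values centred this way the calls of C1r, C1s and C3 ended (adjusted p = 0.515, 0.108 and 0.0608). Their standard errors were then 0.51 each, against 0.15, 0.28 and 0.35 on uncentred values.

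**Figure D4:**
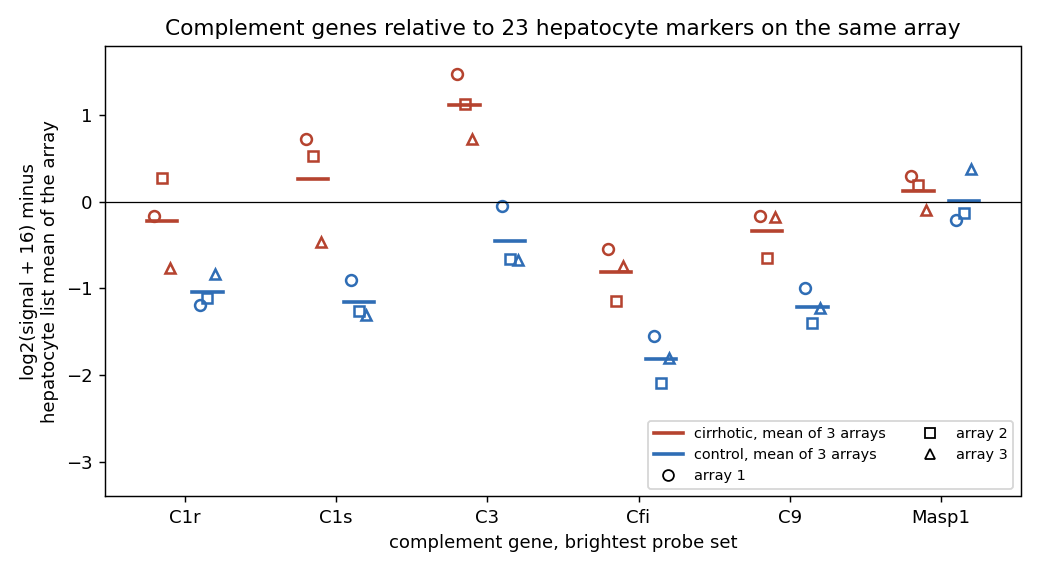
Log2(signal + 16) of each complement gene minus the mean of 23 hepatocyte markers on the same array, with 1 point per array (circle, square and triangle for arrays 1, 2 and 3), cirrhotic arrays left of control arrays, and a bar at the mean of each 3. The cirrhotic points lie above the control points for C1r, C1s, C3, Cfi and C9, by 0.83 to 1.57 on the means, and overlap them for Masp1.

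The genes whose values over the 6 arrays were most like each of these were found by Pearson's correlation with 7147 other tested genes. Cfi and C9 were among each other's 3 closest (r = 0.996), and Serpinf1, which encodes a secreted serpin, was among the closest to both (0.997 with Cfi, 0.995 with C9). C1r was closest to Psmb5, Sfxn1 and Tmem167a, and C1s to Lrp1, Mrps18b and Mical2. C3 was closest to Recql, Fbln5 and Idh2, and Masp1 to the respiratory complex I genes Ndufa11, Ndufa6 and Ndufb5. With 2 separate groups of arrays high values come easily: between 2.74% of genes for Masp1 and 7.5% for C1r had an r over 0.9.

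A list of 43 further complement genes was examined on each gene's brightest probe set. Of these, 26 had a probe set of their own and 21 were bright enough to be tested. In cirrhotic 3 were higher, 3 were lower and 15 were not called, shares close to the 12.3% higher and 13.2% lower over all tested probe sets, and the median difference was 0.48. Those called higher were Cpn1, C1qbp and Clu, and those called lower were Cd93, Cd59b and Cr1l. None of these 6 calls held on values centred on the hepatocyte markers, where each standard error was 0.51, against 0.12 to 0.21 on uncentred values. Centring takes the same value from all probe sets of an array, so every difference moved down by the same amount. The median over all tested probe sets moved from -0.02 to -0.39. The differences of Cd93, Cd59b and Cr1l were -1.52, -1.41 and -0.96 centred, against -1.15, -1.04 and -0.59 uncentred. Those of Cpn1, C1qbp and Clu were 0.50, 0.35 and 0.11, against 0.87, 0.72 and 0.48.

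Among the soluble proteins, Cpn1, the catalytic chain of the carboxypeptidase that trims complement peptides, read 238.1, 267.1 and 326.2 on the cirrhotic arrays, against 136.4, 188.1 and 113.7 on the control arrays. The groups did not overlap, and Cpn1 rose by 0.87 (SE 0.21, adjusted p = 0.0194). Clu, whose product clusterin blocks assembly of the membrane pore, read 3334.7, 3027.2 and 3104.1 on the cirrhotic arrays, against 2698.6, 2215.4 and 1916.8 on the control arrays. Clu rose by 0.48 (SE 0.14, adjusted p = 0.0406). It no longer passed under 10 alternatives, median centring (adjusted p = 0.069) and leaving out any array but control array 1 among them. C1qbp, a mainly mitochondrial protein that can bind C1q, rose by 0.72 (SE 0.16, adjusted p = 0.0163) to a signal of 1706 ± 369 in cirrhotic, against 1014 ± 52.8 in control (SD, n = 3 each). The calls of Cpn1 and C1qbp ended without control array 3 (adjusted p = 0.0668 and 0.0545), that of Cpn1 also without control array 1 (0.0619) and that of C1qbp without control array 2 (0.0558).

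Serping1 encodes the C1 inhibitor, which blocks C1r and C1s. It read 4907.8, 3801.4 and 4072.7 on the cirrhotic arrays, against 4266.7, 4554.5 and 3911.6 on the control arrays. The groups overlapped, and the difference was 0.00 (SE 0.12, 95% interval -0.28 to 0.28, adjusted p = 0.999), with a sign that turned in 6 of the alternative fits. The 95% intervals of the differences of C1r and C1s began at 0.84 and 1.16, above the whole interval of Serping1.

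The 3 genes called lower all encode membrane-bound proteins, while other membrane-bound members of the list were not called (C5ar1, 0.48) or were too dim to be tested. Cd93, a receptor of endothelial and myeloid cells first named for C1q, read 771.6, 738.7 and 819.8 on the cirrhotic arrays, against 1635.0, 1853.5 and 1748.9 on the control arrays. Cd93 fell by 1.15 (SE 0.12, adjusted p = 0.000827). Cd59b, the rat CD59 gene that blocks the membrane pore on host cells, read 631.2, 627.6 and 756.0 on the cirrhotic arrays, against 1376.9, 1366.0 and 1432.4 on the control arrays. Cd59b fell by 1.04 (SE 0.13, adjusted p = 0.00147), and neither gene's groups overlapped. Cr1l, the rodent regulator Crry that stops C3 activation on host cells, read 1376.5, 1187.2 and 1154.0 on the cirrhotic arrays, against 1868.6, 1725.9 and 2030.5 on the control arrays. Cr1l fell by 0.59 (SE 0.13, adjusted p = 0.0132), but did not pass once control array 3 was left out (adjusted p = 0.0611). The endothelial marker list, 14 of 15 lower with a median difference of -1.03, moved the same way on the same arrays, apart from Vwf (0.79, not called). The part of endothelial cells in these falls was not tested.

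The C1q chains, which recognise targets in the classical pathway, had lower means in cirrhotic and did not pass. C1qa, a chain of C1q, read 569.1, 303.1 and 196.0 on the cirrhotic arrays, against 637.2, 1204.7 and 390.9 on the control arrays, a difference of -1.01 (SE 0.46, adjusted p = 0.142) that was -0.67 without cirrhotic array 3, -0.60 without control array 2 and -0.43 with array weights. C1qb and C1qc, named with Fcna after their values were seen, had differences of -0.85 (adjusted p = 0.341) and -0.90 (adjusted p = 0.23). With array weights these were -0.03 and -0.33, without cirrhotic array 3 -0.33 and -0.55, and without control array 2 -0.31 and -0.42. Without control array 3 they were -1.29 and -1.38, and without cirrhotic array 1 C1qb was -1.39. All 3 chains were highest on control array 2 and lowest on cirrhotic array 3. Fcna, which encodes ficolin A of the lectin pathway, differed by -1.07 (SE 0.36, adjusted p = 0.0649), and it passed with median centring (adjusted p = 0.0377) and quantile normalization (0.0446) and without cirrhotic array 1 (-1.40, adjusted p = 0.0433). With array weights the difference of Fcna was -0.62 (adjusted p = 0.154) and with a pseudocount of 126 it was -0.64. Each of the 10 macrophage and Kupffer cell markers also had its lowest cirrhotic signal on cirrhotic array 3. So did all 10 cholangiocyte, 9 of 10 T and NK cell and all 3 B and plasma cell markers. This held for 5 of 14 stellate cell and fibroblast markers and 0 of 23 hepatocyte markers. The Kupffer cell receptor Clec4f fell by 3.22 (SE 0.52), while the macrophage genes Laptm5 and Lyz2 rose (Lyz2 not without control array 3, adjusted p = 0.0546). The part of macrophages and Kupffer cells in the C1q and Fcna values was not tested.

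Further plasma components were tested without a call. C4bpa, the main chain of the C4b-binding protein, read 799.0, 394.9 and 1201.2 on the cirrhotic arrays, against 447.5, 274.5 and 222.1 on the control arrays. Its difference was 1.22 (SE 0.40, adjusted p = 0.0586), and it was 0.87 without cirrhotic array 3 (adjusted p = 0.114) and 1.65 without cirrhotic array 2 (adjusted p = 0.00986). The partner chain C4bpb, the pore inhibitor vitronectin (Vtn) and the mannose-binding lectin Mbl2 had differences of 0.73, 0.90 and 0.82, with adjusted p-values of 0.169, 0.178 and 0.321. Without cirrhotic array 3 these differences were 0.32, 0.47 and 0.22, and without cirrhotic array 2 they were 1.08, 1.32 and 1.29, where C4bpb and Vtn passed (adjusted p = 0.0368 and 0.049). Mbl2 was also 0.41 without control array 3. On their brightest probe sets C4bpa, C4bpb, Vtn, Mbl2, C8b, Masp2, Mbl1 and Cpn1 had their highest signal of all arrays on cirrhotic array 3. So did C3, C1r, Cfi, C9 and the brightest Masp1 probe set. A dimmer Mbl2 probe set did not, at 433.2, 290.4 and 428.6 on the cirrhotic arrays, against 264.1, 375.5 and 165.2 on the control arrays. Its difference was 0.54 (adjusted p = 0.201). The remaining 6 tested genes, C8b, Masp2, Mbl1, C5ar1, Cfp and Cfd, had differences between -0.76 and 0.89 and no call.

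Several complement genes, C3 among them, are raised in hepatocytes by inflammatory cytokines, so 24 acute phase and cytokine response genes were set beside them. In cirrhotic 11 were higher and 3 lower, where 12.3% and 13.2% of all tested probe sets were, with a median difference of 1.19. The endotoxin-binding protein gene Lbp read 1053.6, 575.5 and 1122.5 on the cirrhotic arrays, against 179.1, 162.7 and 254.2 on the control arrays, and rose by 2.09 (SE 0.27, adjusted p = 0.00194). The protease inhibitor gene A2m read 1242.4, 707.0 and 541.1 on the cirrhotic arrays, against 39.3, 78.5 and 20.8 on the control arrays, and rose by 3.79 (SE 0.40, adjusted p = 0.000861). On 2 control arrays it was at or under the highest bacterial control, and its difference was 2.42 with a pseudocount of 126 and 4.25 with a pseudocount of 1. Il6st, the shared receptor chain of the interleukin 6 family, fell by 1.09 (SE 0.11, adjusted p = 0.000719) to 3560 ± 384 in cirrhotic, against 7568 ± 334 in control (SD, n = 3 each). Socs3 (-0.62, SE 0.11, adjusted p = 0.00685) and Irf1 (-0.58, SE 0.17, adjusted p = 0.0402) were also called lower. For 17 of the 24 genes no other cirrhotic array read above cirrhotic array 3. Whether cytokines had a part in these differences was not tested. The count of called genes in this list was 7 without cirrhotic array 1, 9 without control array 2 and 7 without control array 3, against 14 with all arrays.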

How the data were processed

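The deposited values were used as the authors gave them: 1 intensity per probe set and array on a linear scale, already scaled to a common mean, by software that the labels do not state. The number of other columns of sample values not used was 0. Titles gave the groups, and the control array with no number is called control array 1. The scale was log2(signal + 16), with 16 taken from the 10th percentile of the values. Probe sets in the lowest 40% by mean (up to a signal of 127) were filtered out, leaving 9519. Cirrhotic was compared with control by limma 3.58.1 in R 4.3.3 (lmFit, eBayes with a variance trend), two-sided, with Benjamini-Hochberg adjustment over the 9519. As a mark of background, 27 Bacillus control probe sets were used, whose highest signal per array was 21.7 to 49.9. Whether their transcripts were added to the samples is not stated.

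Gene symbols came from the platform annotation supplied with the data: a single symbol for 12783 probe sets, several for 312 and none for 2771. A probe set with several named no gene. Gene lists were read on each gene's brightest probe set. Named by rule were all complement probe sets of the 9 genes and the called genes of the complement list with its 6 brightest uncalled ones. From the other lists these were up to 3 genes with the smallest p, and the genes closest by correlation were added. Named besides were Alb, Socs3, Irf1, Vwf, Acta2, Des, Thy1 and S100a9. Of the complement list C1qb, C1qc, Fcna, the remaining tested genes and the dim genes Itgam, Cd55, Fcnb and C3ar1 were also named. The genes, lists and rules were chosen with earlier results of these data known. The fit was tested on simulated data with the real means, the real spreads shuffled among probe sets, and independent noise. Such data hold no shift shared by the probe sets of an array, so the test does not cover that case. Alternatives are given at the end.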

Additional observations from a re-analysis of the deposited data

How the results depend on the processing

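C1r, C1s and C3 were higher in cirrhotic in all 17 alternative fits and called in 16 of them. The exception, chosen after seeing the data, centred each array on its 23 hepatocyte markers. It called 308 of 9519 probe sets against 2421, and gave adjusted p-values of 0.515, 0.108 and 0.0608 for C1r, C1s and C3. It left 0 of the 7 tested complement probe sets called, 0 of the further complement genes, 3 acute phase and cytokine response genes and 25 cell type markers. The centring shifts all differences equally. The median difference was 0.94 over the 6 genes and -0.39 over all tested probe sets, against 1.31 and -0.02 uncentred. The same shift turned the sign of uncalled differences, to -0.10 for the dimmer tested Masp1 probe set and -0.17 for Alb. The standard errors of C1r, C1s and C3 in the centred fit were 0.51 each, against 0.15, 0.28 and 0.35 on uncentred values. Array weights gave 5 called complement probe sets in place of 3. The difference of Serping1, 0.00 with all arrays, was 0.069 with quantile normalization and 0.14 with array weights. It was -0.078 with median centring, -0.10 with the replicate block described below and -0.37 centred on the hepatocyte markers. With 1 array left out it ran from -0.11 to 0.078, above 0 in 4 of those 6 fits. With 1 array left out, called complement probe sets numbered 3 to 6, further complement genes 2 to 10 (against 6), acute phase genes 7 to 16 (against 14) and cell type markers 35 to 53 (against 47), and the median difference ran from 1.03 to 1.74. Complement probe sets numbered 6 without cirrhotic array 2, and further complement genes 10 without that array and 2 without control array 3. Over all 9519 probe sets 2255 were called without cirrhotic array 2 and 1341 without control array 3, against 2421 with all arrays.

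Median centring moved the share of calls that were higher to 38.5%, against 48.2%. Array numbers in the titles are shared by arrays 2 and 3 only, and their deviations from the group means had correlations of -0.01 and -0.16, so the numbers were not read as pairs. With the number as a replicate block on these 4 arrays, 5 complement probe sets were called in place of 3, and over all probe sets 908 calls were made. Cfi and C9 were then called (1.65, adjusted p = 0.024 and 1.55, adjusted p = 0.0378), as were C4bpa (1.43, 0.0484), C1qa (-1.44, 0.0158), C1qb (-1.48, 0.0154) and C1qc (-1.28, 0.0371), while C1qbp, Cpn1, Cr1l and Clu were not (adjusted p = 0.0759, 0.111, 0.128 and 0.139). Calls over all probe sets numbered 3772 with array weights, 1366 without cirrhotic array 1 and 1341 without control array 3. Dim genes are limited by their signal over background.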

Other observations

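Several complement genes of leukocytes and cell surfaces were too dim for the main comparison. Itgam, which encodes a chain of complement receptor 3 on myeloid cells, read 164.8, 196.8 and 68.7 on the cirrhotic arrays, against 58.7, 17.9 and 23.6 on the control arrays. In limma without the filter on dim probe sets Itgam differed by 1.67 (SE 0.43, adjusted p = 0.0379). The groups did not overlap, and on control arrays 2 and 3 the signal lay within the bacterial controls. Cd55, which speeds the decay of C3 convertases on host cells, read 155.8, 189.2 and 107.1 on the cirrhotic arrays, against 94.6, 75.0 and 78.1 on the control arrays, without a call (adjusted p = 0.0771 in the same fit). Fcnb, a ficolin of myeloid cells, read 311.1, 226.1 and 18.1 on the cirrhotic arrays, against 77.4, 95.5 and 16.1 on the control arrays. Cirrhotic array 3 was thus far below arrays 1 and 2 for Fcnb, and the neutrophil gene S100a9 read 1022.3, 639.0 and 45.0 on the same arrays. The receptor gene C3ar1 was at or under the highest bacterial control on 4 of 6 arrays, at 34.0 to 50.5 in cirrhotic and 17.5 to 27.2 in control.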
